A study of Mus musculus with 8 samples.

Results

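Gene expression was compared between 2 cultures of mouse tail-tip fibroblasts (TTFs) undergoing cardiac reprogramming, one given a TGFb inhibitor and the other a Wnt inhibitor. The comparison used 1 array of each culture, 2 of the 8 arrays in the series, and subtracted the log2 expression value with the Wnt inhibitor from that with the TGFb inhibitor for each transcript cluster, the array's unit for a gene. Positive differences are higher with the TGFb inhibitor. All cultures of the series were postnatal TTFs that had received GHMT, a retroviral mix of the cardiac transcription factors Gata4, Hand2, Mef2c and Tbx5, which turns fibroblasts towards cardiomyocyte-like cells. The compound, or the solvent DMSO in the culture with GHMT alone, went on together with the virus. The series has 4 arrays of TTF set 2 (GHMT alone, EP4 antagonist, TGFb inhibitor, Wnt inhibitor) and 4 of TTF set 1 (GHMT alone, diclofenac, EP4 antagonist, diclofenac plus PGE2). Both inhibitor cultures belong to set 2 and were not repeated in set 1, and untransduced cells were not analysed here. The sources used here do not give which TGFb inhibitor and which Wnt inhibitor were used, at what dose, or when the cells were harvested.

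TGFb binds a pair of receptor kinases that phosphorylate Smad2 and Smad3, which enter the nucleus and switch on genes for collagens, other matrix proteins and their cross-linking enzymes, together with feedback genes such as Pmepa1, Smad7 and Skil. Wnt ligands bind Frizzled and Lrp receptors and free beta-catenin from a destruction complex held by Axin and Apc, after which beta-catenin works with TCF/LEF factors to raise feedback genes such as Axin2, Nkd1, Lgr5 and Apcdd1. In fibroblasts TGFb drives the matrix-producing, contractile myofibroblast state, and inhibitors of both pathways have been used to help fibroblasts take up a cardiac fate.

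The arrays were alike in scale. The median over the transcript clusters was 5.14 with the TGFb inhibitor and 5.13 with the Wnt inhibitor, and 43.7% and 43.8% of clusters lay above the background level, which is the 95th percentile of 23 background probe sets on each array (5.96 and 5.93 here). In both cultures 9 of 9 matched fibroblast markers lay above background, and Vim, an intermediate filament of mesenchymal cells, read 18.61 and 18.78. Smooth muscle markers were detected as widely, 7 of 7 with the TGFb inhibitor and 6 of 7 with the Wnt inhibitor. These markers thus do not tell fibroblasts from smooth muscle cells or myofibroblasts. Of 9 skeletal muscle markers 3 lay above background in each culture, and of 6 matched adipocyte markers 2. Of 10 cardiomyocyte markers, 8 lay above background in each culture, while Tnni3 and Myl2 did not. Markers of endothelium (0 of 8 above background in each) and of keratinocytes and epithelium (0 of 8) were at background, as were those of macrophages and leukocytes except Lyz2 with the Wnt inhibitor (6.47, against 5.75). Of 7 cartilage and bone markers 2 lay above background, and both were lower with the TGFb inhibitor: Sox9 (8.16 against 10.80) and Col10a1 (7.35 against 9.94), while Acan and Col2a1 were at background. Of 5 Schwann and neural markers Tubb3 (9.55 against 8.75) and Stmn2 (10.52 against 11.75) lay above background. Of the transduced factors, Mef2c read 18.11 and 18.25, Tbx5 14.40 and 14.34 and Hand2 11.93 and 11.72, while Gata4 read 4.09 in both, at background, as in every array of set 2; whether its probes match the viral sequence was not checked. The number of arrays limits the precision throughout. In bulk RNA, fewer cells of a type and less RNA per cell cannot be told apart.

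Many genes of the extracellular matrix and of the TGFb response read lower with the TGFb inhibitor than with the Wnt inhibitor. A smaller number of Wnt feedback genes, led by Axin2, read lower with the Wnt inhibitor than with the TGFb inhibitor. Against GHMT alone, the median of the Wnt feedback genes above background was 0.05 with the Wnt inhibitor. Of 22206 transcript clusters, 936 differed 2-fold or more (4.22%), of which 434 were higher (1.95%) and 502 lower (2.26%) with the TGFb inhibitor. By the same measure 5.36% of clusters differed between GHMT alone and the TGFb inhibitor, 4.1% between GHMT alone and the Wnt inhibitor, 6.32% and 4.81% between the EP4 antagonist and these inhibitors in turn, and 2.74% between GHMT alone and the EP4 antagonist; these pairs share arrays. In 256 of the 936 both arrays were at background. With the higher array above background, 680 of 10022 clusters differed 2-fold or more (6.79%), with 305 higher (3.04%) and 375 lower (3.74%). These shares are the background for the counts of gene lists below. The lists were chosen with earlier results of these data known, so a list count above its share is a description and not a test. The counts use the measured values. With a lower array at background raised to that level, 256 clusters were higher (2.55%) and 330 lower (3.29%). At least 4-fold apart were 148 of the 936 (62 higher, 86 lower), and at least 8-fold apart were 41 (19 higher, 22 lower). The median difference of all clusters was 0.01 and its quartiles were -0.24 and 0.26.

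**Figure D1:**
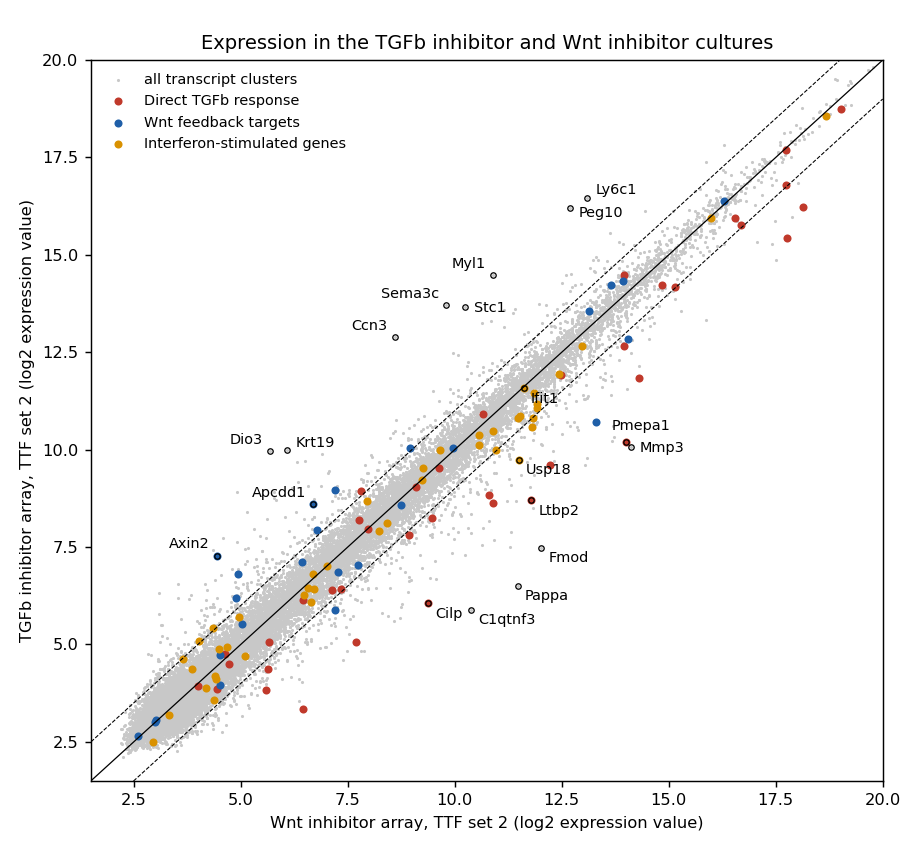
Log2 expression value of each transcript cluster with the Wnt inhibitor (x axis) and the TGFb inhibitor (y axis), 1 array each of TTF set 2; the dashed lines mark a 2-fold difference and coloured points are members of 3 gene lists. TGFb response genes such as Pmepa1 and Ltbp2 lie below the lower line, Axin2 and Apcdd1 lie above the upper line, and the interferon-stimulated genes run along the diagonal.

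With 1 array per inhibitor the pair has no replicate check of its own. Standard errors (SE) of the differences come from limma fitted over all 8 arrays with the TTF set as a block, where the spread rests on GHMT and the EP4 antagonist, the groups present in both sets, with 1 residual degree of freedom. The inhibitor arrays are assumed to vary like these. Nothing says that arrays of one group came from separate animals or cultures, so errors and p-values cover no spread beyond these samples. Each also draws on a prior pooled over all clusters (4.92 prior degrees of freedom against 1 residual). An SE is therefore not a gene's own replicate spread. Without the block the median SE was 0.56, against 0.29 with it. At a Benjamini-Hochberg adjusted p under 0.05 limma called 0 of 22206 clusters. The smallest adjusted p was 0.0558, shared by Pappa and Fmod. Other settings of the same limma fit called more: 65 of 10933 clusters with a background filter, 146 with a trend and robust prior and 229 after quantile normalization. The counts at 2-fold and the values below are given as descriptions of these arrays, and the median SE of a difference was 0.29.

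The GHMT array of the same set shows which inhibitor culture stood apart. Here and below, high, low and alone refer to the 4 arrays of TTF set 2, given in the order GHMT, EP4 antagonist, TGFb inhibitor and Wnt inhibitor. Of the 680 clusters, GHMT lay nearer the Wnt inhibitor value in 430 and nearer the TGFb inhibitor value in 249. The EP4 antagonist array, which enters neither value, lay nearer the Wnt inhibitor in 490 and nearer the TGFb inhibitor in 189. In 201 clusters the TGFb inhibitor array was at least 1 log2 unit from GHMT and the Wnt inhibitor array within 0.5 of it, and in 93 the reverse held. Both of these distances use the single GHMT array, so an error in it moves both.

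**Figure D2:**
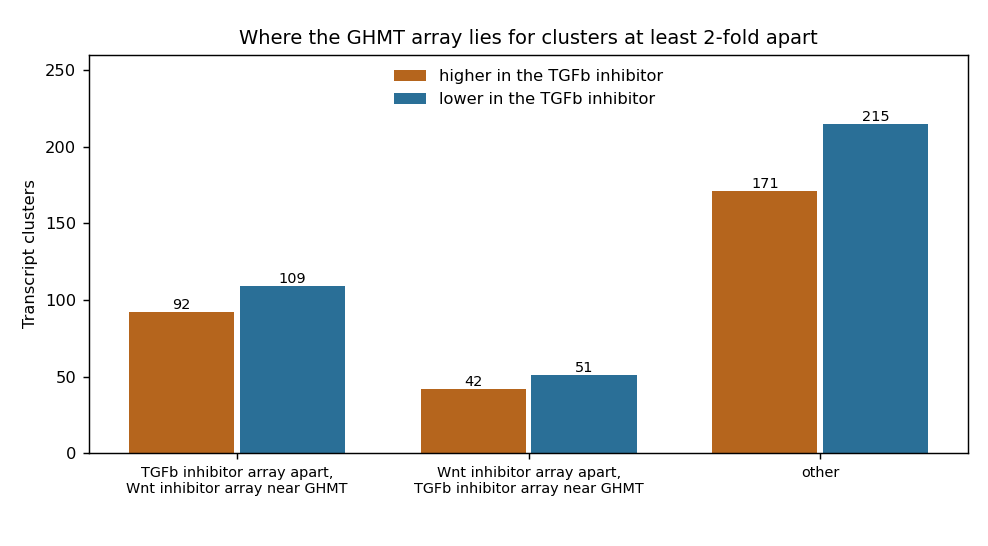
Number of transcript clusters (y axis) at least 2-fold apart between the inhibitor arrays, with the higher array above background, split by which inhibitor array lies at least 1 log2 unit from GHMT while the other lies within 0.5 of it. The TGFb inhibitor array stood apart in 92 higher and 109 lower clusters and the Wnt inhibitor array in 42 and 51; the remaining 171 and 215 met neither condition.

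Among the 15 largest negative differences (by the naming rule given with the methods), the first was Pappa, a secreted protease that cuts IGF-binding proteins. Pappa read 10.02 with GHMT alone, 10.27 with the EP4 antagonist, 6.50 with the TGFb inhibitor and 11.47 with the Wnt inhibitor, a difference of -4.97 ± 0.32 (SE) or 31.3-fold. The TGFb inhibitor array was the lowest of the 4, and the Wnt inhibitor array the highest. Fmod, a collagen-binding proteoglycan, read 9.25, 8.42, 7.48 and 12.02 in the same order of arrays (-4.54 ± 0.28, 23.3-fold). Here GHMT and the EP4 antagonist were closer to the TGFb inhibitor, and the Wnt inhibitor stood above the others of set 2. The Wnt inhibitor value lay within the set-1 range of 10.77 to 12.28, from cultures without either inhibitor. C1qtnf3, a secreted protein of the C1q and TNF-related family, read 9.25, 10.89, 5.89 and 10.38, so the TGFb inhibitor value was at background and the Wnt inhibitor value at least 21.4-fold higher.

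Proteases that cut matrix followed. Mmp3 (stromelysin) read 12.20 with GHMT, 10.85 with the EP4 antagonist, 10.08 with the TGFb inhibitor and 14.11 with the Wnt inhibitor (-4.03 ± 0.34, 16.3-fold). The collagenase Mmp13 read 11.05, 10.68, 9.79 and 13.10 (-3.31 ± 0.36, 9.92-fold). For both, the Wnt inhibitor array lay above the other 3 arrays of the set by more than the TGFb inhibitor array lay below the lowest of them. Pmepa1, a TGFb-induced membrane protein that holds back Smad signalling, had another shape: 14.07, 14.05, 10.19 and 14.00 (-3.81 ± 0.29, 14.0-fold), with the TGFb inhibitor alone apart from 3 nearly equal values. The set-1 arrays, all without either inhibitor, read 13.24 to 13.54 for Pmepa1.

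The remaining genes of the 15 varied in function. The adhesion molecule Ncam1 read 14.17, 14.45, 10.60 and 13.70 (-3.10 ± 0.30) and the LIM-domain protein Pdlim3 of the muscle Z-disc 14.86, 14.73, 10.23 and 13.68 (-3.45 ± 0.48). In both the TGFb inhibitor array was the low one. Cspg4, the NG2 proteoglycan of pericytes and progenitors, read 9.36, 10.90, 7.88 and 11.31 (-3.43 ± 0.28). Itgbl1, Cilp and Cthrc1, all secreted matrix-associated proteins, differed by -3.45, -3.32 and -3.32. Fam20a, a pseudokinase of the secretory pathway, differed by -3.23. The collagen-binding integrin Itga11 was at 3.35, at background, with the TGFb inhibitor and at 6.46 with the Wnt inhibitor, at least 1.41-fold higher. Erv3, named for an endogenous retrovirus, differed by -3.77 but with an SE of 0.81.

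The 15 largest positive differences were mixed in function. Dio3, the deiodinase that inactivates thyroid hormone, read 7.43 with GHMT alone, 5.90 with the EP4 antagonist, 9.97 with the TGFb inhibitor and 5.69, at background, with the Wnt inhibitor (4.28 ± 0.44, at least 16.4-fold). Ccn3, a matricellular protein of the same family as Ccn2, read 7.90, 9.07, 12.88 and 8.60 (4.28 ± 0.50, 19.4-fold). In set 1 Ccn3 ranged from 9.44 to 11.78, so its level varied by over 2 log2 units among cultures without either inhibitor. Sema3c, a secreted guidance factor, read 10.17, 9.87, 13.70 and 9.80 (3.90 ± 0.29, 14.9-fold), and its set-1 values of 9.69 to 10.27 were close to those of the 3 lower arrays of set 2.

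Stc1, a secreted glycoprotein hormone, followed the same shape with 9.74, 9.17, 13.66 and 10.23 (3.43 ± 0.32, 10.8-fold). So did Pla1a, a phospholipase, with 6.39, 6.03, 9.67 and 6.32 (3.35 ± 0.31, 10.2-fold). In these genes the TGFb inhibitor array alone was high. Ccl11 (eotaxin) read 8.39 with the TGFb inhibitor and was at background in the other 3 arrays of the set, at least 5.50-fold above the Wnt inhibitor. The surface antigen Ly6c1 read 11.77, 11.28, 16.46 and 13.08 (3.38 ± 0.31, 10.4-fold), with both inhibitor arrays above GHMT and the TGFb inhibitor furthest. Krt19, a keratin, read 7.33, 7.46, 9.98 and 6.07 (3.91 ± 0.38, 15-fold), although markers of epithelium were at background. The carbonic anhydrases Car3 (8.90 against 4.92, at least 7.84-fold) and Car2 (6.32 against 3.09, at least 1.31-fold) were also higher with the TGFb inhibitor.

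Peg10, an imprinted gene derived from a retrotransposon, was lowest in the Wnt inhibitor array of the set. It read 16.22 with GHMT, 14.74 with the EP4 antagonist, 16.21 with the TGFb inhibitor and 12.69 with the Wnt inhibitor (3.52 ± 0.60, 11.5-fold), and 13.76 to 15.48 in set 1, so the EP4 antagonist and set-1 arrays also lay below GHMT of set 2. Gpr50 had the same shape with 8.16, 5.07, 7.74 and 4.59, but its SE was 1.01. Cdsn (corneodesmosin) was at background in the 3 other arrays and at 7.42 with the TGFb inhibitor, at least 2.81-fold. The naming rule skips predicted genes, and the largest positive difference of all was one of these, 2610528A11Rik, with 9.07, 6.70, 13.95 and 8.86 (5.09 ± 0.60, 34.1-fold); it is named here after its values were seen.

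**Figure D3:**
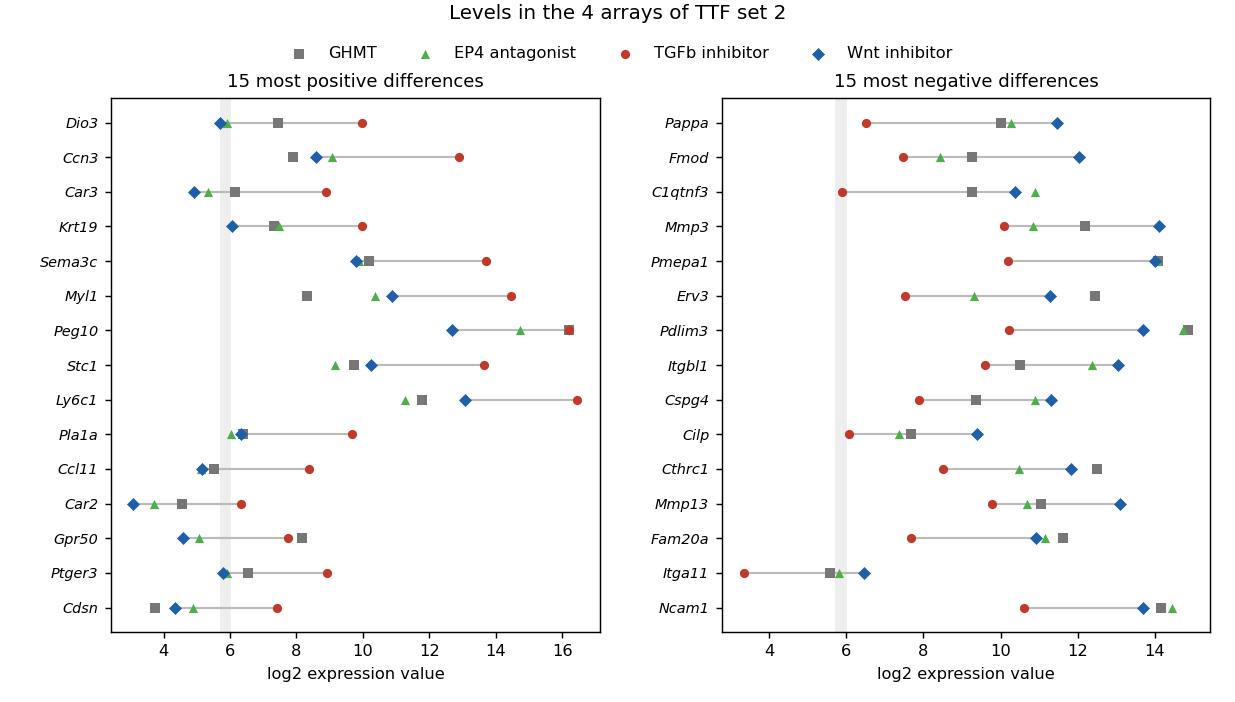
Log2 expression value (x axis) of the 15 genes with the largest positive (left) and negative (right) difference in the 4 arrays of TTF set 2; each point is 1 array, the line joins the inhibitor arrays and the grey band spans the background levels of the 8 arrays (5.73 to 5.99). The TGFb inhibitor stands alone for Sema3c (13.70 against 9.80 to 10.17) and Pmepa1 (10.19 against 14.00 to 14.07). For Peg10 the Wnt inhibitor is lowest (12.69) and the EP4 antagonist next (14.74).

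The TGFb pathway was then read from its ligands to its targets. Of 31 ligand, receptor, Smad and antagonist genes above background (40 matched), 6 were at least 2-fold higher and 4 lower with the TGFb inhibitor, and the median difference of the 31 was -0.18, against 0.02 for all clusters above background. The ligand Tgfb1 read 12.97 with GHMT alone, 12.69 with the EP4 antagonist, 11.41 with the TGFb inhibitor and 13.64 with the Wnt inhibitor (-2.23 ± 0.29, 4.69-fold). The TGFb inhibitor array was lowest and the Wnt inhibitor array highest, while the other ligands Tgfb2 (0.31) and Tgfb3 (-0.76) differed by less than 2-fold. Ltbp1, which stores latent TGFb in the matrix, differed by -1.21, Gdf10 by -1.26 and Fstl3, an activin antagonist, by -1.16.

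Inhbb, a subunit of activin B and inhibin B, was higher with the TGFb inhibitor, with 10.53, 10.34, 11.50 and 9.49 (2.01 ± 0.29, 4.03-fold). The co-receptor Tgfbr3 read 12.19, 11.88, 14.88 and 13.35 (1.53 ± 0.32), above GHMT with both inhibitors. Smad3, the signal carrier, differed by 1.18 ± 0.28, and the signalling receptors Tgfbr1 and Tgfbr2 by 0.23 and 0.69. The BMP ligands Bmp4 (1.09), Bmp6 (1.24) and Bmp2 (1.25, at least 1.73-fold) were all higher with the TGFb inhibitor. All 4 Id genes, BMP-induced inhibitors of differentiation factors, had positive differences, but Id4 alone reached 2-fold: it read 6.65, 5.48, 9.07 and 6.56 (2.51 ± 0.46). Id1 read 9.27 with GHMT, 8.28 with the EP4 antagonist, 11.33 with the TGFb inhibitor and 11.21 with the Wnt inhibitor, so both inhibitor arrays lay above the others and differed by 0.12.

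Of 32 direct TGFb response genes above background (39 matched), 14 were measured at least 2-fold lower with the TGFb inhibitor, where the share of all clusters was 3.74%, and 1 was higher. By the lower bound, 13 of the 14 reached 2-fold, Itga11 being the exception. The median difference of the 32 was -0.93, with 27 negative and 4 positive. In 11 of the 15 past 2-fold, GHMT lay nearer the Wnt inhibitor. Beside Pmepa1, the pattern of a low TGFb inhibitor array held for Skil, a Smad co-repressor, with 11.17, 10.79, 8.83 and 10.79 (-1.96 ± 0.30, 3.89-fold). Fn1 (fibronectin) read 17.93, 17.44, 15.43 and 17.76 (-2.33 ± 0.30, 5.03-fold). Lox, the enzyme that cross-links collagen and elastin, read 17.85, 18.29, 16.23 and 18.14 (-1.91 ± 0.38, 3.76-fold).

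In some members the Wnt inhibitor array was also the highest of the set. Ltbp2, a microfibril-associated relative of the latent TGFb binding proteins, read 10.28, 10.18, 8.70 and 11.79 (-3.09 ± 0.28, 8.51-fold). Cilp read 7.69, 7.37, 6.06 and 9.38 (9.99-fold). In Ccn2, Tgfbi and Postn the TGFb inhibitor array was lowest, and the Wnt inhibitor array was not the highest. Ccn2, also called CTGF, read 13.68 with GHMT and 15.05 with the EP4 antagonist, against 11.83 with the TGFb inhibitor and 14.31 with the Wnt inhibitor (-2.48 ± 0.44, 5.58-fold). Tgfbi differed by -2.62 (12.83, 10.67, 9.60 and 12.22) and Postn (periostin) by -2.26 (11.28, 11.53, 8.64 and 10.90). Smad7, the feedback inhibitor of the pathway, read 6.02, 6.01, 6.13 and 6.45, close to background in all 4 arrays, and differed by -0.32. Acta2, the smooth muscle actin that marks myofibroblasts, read 18.36, 18.56, 18.32 and 18.52 and differed by -0.20. The smooth muscle markers Cnn1 and Tagln lay further from GHMT. Cnn1 lay at -1.96 with the TGFb inhibitor and -1.66 with the Wnt inhibitor, and Tagln at -1.14 and -0.54. In set 1, without either inhibitor, Cnn1 read 9.61 to 9.92, below both inhibitor values. Over the 21 smooth muscle genes above background, the median distances from GHMT were -0.07 and -0.09. Angptl4, a secreted lipase inhibitor, was the 1 direct TGFb response gene at least 2-fold higher with the TGFb inhibitor (8.73, 8.73, 8.95 and 7.80). Its Wnt inhibitor array was the low one.

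Of 19 Wnt feedback targets above background (25 matched), 7 were measured at least 2-fold higher with the TGFb inhibitor, where the share of all clusters was 3.04%, and 3 were lower (3.74%). By the lower bound, 5 of the 7 reached 2-fold, Lgr5 and Tnfrsf19 being the exceptions. The median difference of the 19 was 0.43. Their median distance from GHMT was 0.39 with the TGFb inhibitor and 0.05 with the Wnt inhibitor. Of the 10 past 2-fold, GHMT lay nearer the Wnt inhibitor in 6 and nearer the TGFb inhibitor in 4. Axin2, the feedback scaffold of the destruction complex, read 6.89 with GHMT alone, 6.57 with the EP4 antagonist, 7.28 with the TGFb inhibitor and 4.44 with the Wnt inhibitor (2.84 ± 0.31, at least 2.55-fold). The Wnt inhibitor value was at background and the other 3 arrays of the set lay between 6.57 and 7.28. Set-1 values of Axin2 were 5.60 to 5.78, near background. Apcdd1, a membrane-bound Wnt antagonist, read 8.52, 8.79, 8.61 and 6.69 (1.92 ± 0.28, 3.78-fold), again with the Wnt inhibitor lowest of the 4. In set 1, without a Wnt inhibitor, Apcdd1 read 4.61 to 5.30, at background and below that value.

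The other members differed in another way. Nkd2, an antagonist that binds Dishevelled, read 6.69, 7.42, 8.97 and 7.20 (1.77 ± 0.28), so the TGFb inhibitor array was high and the Wnt inhibitor array lay among the rest. The R-spondin receptor Lgr5 read 5.16, 5.99, 6.80 and 4.93 (at least 1.83-fold), and the receptor Tnfrsf19 (Troy) 5.13, 5.09, 6.20 and 4.88 (at least 1.21-fold), both at or near background outside the TGFb inhibitor array. Nkd1 read 6.56, 6.79, 7.12 and 6.44 (0.68 ± 0.29). Lef1, Notum and Sp5 were at background in both inhibitor arrays. Ccn4, also called WISP1, ran against the list with 13.20, 13.28, 10.72 and 13.30 (-2.58 ± 0.30, 5.98-fold), low with the TGFb inhibitor alone. Lgr4 was high with the Wnt inhibitor alone (12.99, 12.54, 12.83 and 14.04).

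The pathway genes upstream of these targets were read next. Of 10 genes of the destruction complex and tankyrases above background, Axin2 was the 1 past 2-fold, and Apc (0.06), Gsk3b (0.18), Axin1 (0.24) and Tnks2 (0.12) differed by less than 0.3. Tnks, a tankyrase, read 10.67 with the TGFb inhibitor and 11.61 with the Wnt inhibitor (-0.94 ± 0.41). Of 19 Wnt ligands and receptors above background, 1 was higher and 2 were lower with the TGFb inhibitor, with a median of -0.31. Rspo3, a secreted amplifier of Wnt signals, read 13.04, 11.15, 10.60 and 12.69 (-2.09 ± 0.37), the receptor Fzd2 12.46, 12.57, 10.95 and 12.14 (-1.19), and the ligand Wnt4 was higher with the TGFb inhibitor (6.98 against 5.80, at least 2.07-fold). Among 5 secreted antagonists above background 4 were past 2-fold, in both directions: Dkk2 (1.65 ± 0.50) and Sfrp1 (1.34 ± 0.61) were higher with the TGFb inhibitor and Dkk3 (-1.05 ± 0.28) and Cthrc1 lower.

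**Figure D4:**
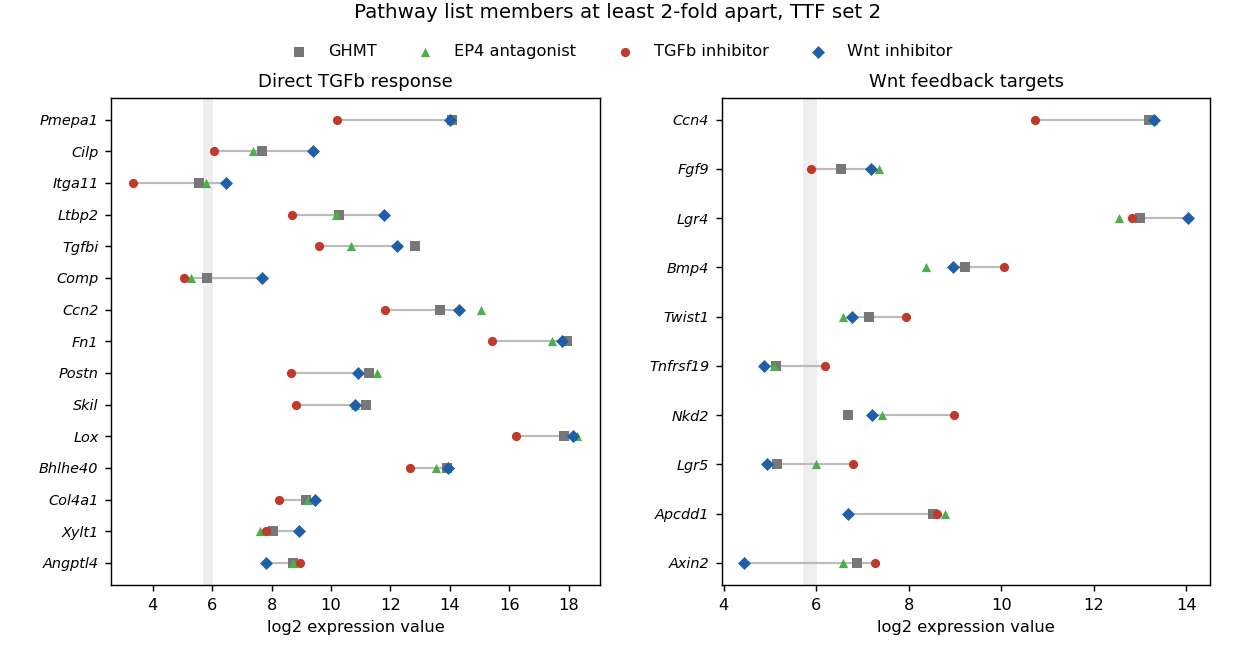
Log2 expression value (x axis) in the 4 arrays of TTF set 2 for direct TGFb response genes (left, 15 genes) and Wnt feedback targets (right, 10 genes) at least 2-fold apart; each point is 1 array, the line joins the inhibitor arrays and the grey band spans the background levels. On the left the TGFb inhibitor is the lower end for 14 of 15 genes; on the right the Wnt inhibitor is the lowest of the 4 arrays for Axin2 (4.44) and Apcdd1 (6.69).

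The promoters of these genes were read for the letters of a Smad CAGA element (CAGACA, or TGTCTG on the other strand) and of a TCF/LEF element (ATCAAAG, or CTTTGAT) in the 250 bases before each start in RefSeq's mouse annotation (GRCm38.p6). The CAGA letters occurred in 17.1% of 32851 promoter entries, in 17.9% of entries of genes higher with the TGFb inhibitor and in 16.8% of entries of genes lower with it. They occurred in 17.1% of 41 entries of direct TGFb response genes (25 of 39 genes matched). The TCF/LEF letters occurred in 3.21% of all entries, 1.90% and 2.10% of those of higher and lower genes, and 2 of 21 entries of Wnt feedback targets (16 of 25 genes matched). A match is a run of letters, not a site shown to be used, and no match speaks only of this window. Shown are the promoters of Axin2, the Wnt target with the largest difference, of Tnfrsf19, the member above background that holds a match, and of Ltbp2, whose difference was among the largest of the TGFb response. Capitals mark the 1 match; the motifs do not overlap in them. The windows are chr11:108920099-108920348 (plus strand), chr14:61037988-61038237 (minus strand, the second of 2 Tnfrsf19 starts) and chr12:84876492-84876741 (minus strand), each written 5′ to 3′.
Axin2: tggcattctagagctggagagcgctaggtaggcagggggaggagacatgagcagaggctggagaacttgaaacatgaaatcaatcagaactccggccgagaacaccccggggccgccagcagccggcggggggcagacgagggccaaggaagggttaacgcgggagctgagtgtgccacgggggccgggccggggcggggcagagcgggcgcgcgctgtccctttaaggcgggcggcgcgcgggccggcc
Tnfrsf19: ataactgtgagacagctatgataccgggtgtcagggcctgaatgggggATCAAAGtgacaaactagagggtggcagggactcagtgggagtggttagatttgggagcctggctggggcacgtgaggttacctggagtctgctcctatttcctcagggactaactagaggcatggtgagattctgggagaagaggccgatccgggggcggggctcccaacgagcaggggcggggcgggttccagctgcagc
Ltbp2: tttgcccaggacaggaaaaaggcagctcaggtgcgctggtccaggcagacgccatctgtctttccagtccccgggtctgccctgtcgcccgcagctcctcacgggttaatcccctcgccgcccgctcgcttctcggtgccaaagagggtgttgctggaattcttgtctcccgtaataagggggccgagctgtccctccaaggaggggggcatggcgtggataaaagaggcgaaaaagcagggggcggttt

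Many matrix genes were lower with the TGFb inhibitor. Of 21 collagens above background (41 matched), 11 were at least 2-fold lower and 1 higher, against 3.74% and 3.04% of all clusters. The median was -1.0 over these 21 and -0.22 over all 41 matched. The cartilage markers Sox9 (9.62, 7.82, 8.16 and 10.80) and Col10a1 (8.44, 11.11, 7.35 and 9.94) were also lower with the TGFb inhibitor than with the Wnt inhibitor. Sox9 was lowest with the EP4 antagonist. Col10a1 was highest with it and spanned 6.88 to 10.82 in set 1, a span wider than its difference here. The part of these genes in the matrix differences was not tested. Col1a2, a chain of type I collagen, read 14.95 with GHMT alone, 15.38 with the EP4 antagonist, 12.14 with the TGFb inhibitor and 14.30 with the Wnt inhibitor (-2.16 ± 0.50, 4.47-fold), and the partner chain Col1a1 read 16.76, 16.34, 15.28 and 16.28 (-1.0 ± 0.29). Both were lowest with the TGFb inhibitor and highest without either inhibitor. Col5a2 (12.63, 13.05, 9.57 and 12.18) and Col5a1 (-1.70) of the type V collagen that starts fibrils had the same shape. Col3a1 read 15.14, 14.58, 13.94 and 14.16, low in both inhibitor arrays, and differed by -0.22. Col4a3, a basement membrane chain, was the exception at 8.71 against 5.83, at least 6.87-fold higher with the TGFb inhibitor.

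Genes that assemble collagen and elastic fibres were also lower, with 8 of 20 above background past 2-fold and 1 higher (median -0.80). The shares of all clusters were 3.74% lower and 3.04% higher. Fbln2, a fibulin, read 14.18, 14.16, 11.55 and 14.02 (-2.47 ± 0.36, 5.54-fold), low with the TGFb inhibitor alone. The microfibril protein Mfap2 read 8.20, 7.10, 6.74 and 8.93 (-2.19) and the prolyl hydroxylase subunit P4ha3 8.08, 9.01, 7.13 and 9.55 (-2.42). For both, the TGFb inhibitor array was the lowest and the Wnt inhibitor array the highest. The cross-linking enzyme Loxl3 was also lower with the TGFb inhibitor than with the Wnt inhibitor (-1.33), whereas Efemp1 (fibulin-3) was higher (16.48, 15.87, 17.83 and 16.30). Of 31 proteoglycans and matricellular proteins, 10 were lower and 3 higher, with a median of -0.26. Aspn (asporin) read 10.15, 10.34, 7.56 and 10.64 (-3.08 ± 0.34), and Bgn (biglycan) 17.24, 17.63, 15.96 and 17.89 (-1.93 ± 0.32). Thbs4 (thrombospondin 4) was high with the Wnt inhibitor instead (15.32, 15.41, 14.86 and 17.51). Prelp (14.09, 14.28, 16.13 and 14.45) was high with the TGFb inhibitor.

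Of 22 matrix proteases and inhibitors above background, 9 were lower with the TGFb inhibitor and 1 higher (median -0.74), against 3.74% and 3.04% of all clusters. Adam12, a membrane metalloprotease, read 10.47, 9.87, 7.30 and 10.23 (-2.93 ± 0.28, 7.62-fold), and Mmp10 read 7.90, 7.78, 4.83 and 7.88 (at least 3.78-fold). Mmp10 was at background with the TGFb inhibitor and also in the 4 arrays of set 1, which read 4.84 to 5.37. Mmp2 (-1.29) and Mmp14 (-1.04), which activates it, were lowest with the TGFb inhibitor and highest with the Wnt inhibitor, though for Mmp2 the arrays other than the Wnt inhibitor lay between 13.08 and 13.43. Among 20 fibroblast identity genes the differences ran both ways, 4 higher and 4 lower. Runx1 (-1.93 ± 0.30) and the PDGF receptor Pdgfrb (11.60, 12.32, 11.38 and 13.11) were highest with the Wnt inhibitor, and the transcription factors Twist2 (1.24 ± 0.55) and Prrx1 (1.05 ± 0.28) were highest with the TGFb inhibitor.

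The interferon-stimulated genes, high in both inhibitor arrays, were close between them but tilted one way. Of 29 above background (43 matched), 3 were at least 2-fold lower with the TGFb inhibitor and 0 higher, against 3.74% and 3.04% of all clusters. Of the 29 differences 24 were negative and 4 positive, and the median was -0.31. The median distance from GHMT was 2.69 with the TGFb inhibitor and 3.13 with the Wnt inhibitor, with the same GHMT array in both. Ifit1, which binds viral RNA, read 5.15 with GHMT alone, 5.26 with the EP4 antagonist, 11.58 with the TGFb inhibitor and 11.61 with the Wnt inhibitor. Isg15, a ubiquitin-like modifier, read 3.01, 3.25, 6.09 and 6.64. Usp18, which removes Isg15 from proteins, differed most (5.70, 5.14, 9.74 and 11.50; -1.76 ± 0.35), followed by Bst2 (-1.22 ± 0.30) and Oasl2 (-1.02 ± 0.54). Of the defining markers of macrophages and leukocytes, 8 of 8 were at background with the TGFb inhibitor and 7 of 8 with the Wnt inhibitor.

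Cardiac genes, the target of the reprogramming, differed in both directions. Of 23 sarcomere genes above background (31 matched), 2 were at least 2-fold higher and 3 lower with the TGFb inhibitor (median -0.21). The shares of all clusters were 3.04% and 3.74%. Csrp3, a Z-disc protein of striated muscle, read 13.25 with GHMT alone, 13.81 with the EP4 antagonist, 13.59 with the TGFb inhibitor and 11.14 with the Wnt inhibitor (2.45 ± 0.75, 5.46-fold), with the Wnt inhibitor low. Myoz2, a calcineurin-binding Z-disc protein, read 13.17, 13.25, 14.50 and 12.72 (1.78 ± 0.60). Actc1 (cardiac actin) read 11.64, 14.39, 13.24 and 14.66 (-1.42 ± 0.43), so GHMT was lowest and the TGFb inhibitor lay below the Wnt inhibitor. Across set 1 Csrp3 spanned 9.11 to 12.06 and Actc1 11.67 to 14.37, spans wider than their differences here. Ttn (titin) read 8.69, 8.89, 7.82 and 9.41 and Myl4, the atrial light chain, 13.64, 14.80, 12.44 and 13.62.

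Other cardiac genes were nearly equal in the inhibitor cultures. Myh6, the fast cardiac myosin, read 6.88 and 6.84 against 4.19, at background, with GHMT alone, Tnnt2 (cardiac troponin T) 17.51 and 17.85, and Nppa (atrial natriuretic peptide) 17.09 and 17.03 against 15.40 with GHMT alone. The calcium pump Atp2a2 read 15.73 and 15.71. Among 14 calcium handling, channel and conduction genes above background, 2 were higher and 3 lower with the TGFb inhibitor (median -0.28). Of all clusters 3.04% were higher and 3.74% lower. The pacemaker channel Hcn4 read 10.48, 9.47, 10.57 and 12.13 (-1.56 ± 0.51), highest with the Wnt inhibitor, at a level within its set-1 range of 11.76 to 13.01. Trdn (triadin) read 6.49 with the TGFb inhibitor, at least 1.47-fold above the Wnt inhibitor, and 6.08 to 7.35 in set 1. Of 12 cardiac factors and hormones, Smyd1, a muscle methyltransferase, differed by -1.57 ± 0.28, Nppb by -1.13 ± 0.44 and Tbx20 by 1.03 ± 0.49.

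Few skeletal muscle genes were detected. Of 24 matched, 5 lay above background, and 3 of these were at least 2-fold higher with the TGFb inhibitor. The other 2, the skeletal actin Acta1 (9.95 against 9.91) and the creatine kinase Ckm (6.44 against 6.38), differed by 0.04 ± 0.65 and 0.06 ± 0.36. Over all 24 the median difference was 0.05. Myl1, the fast skeletal light chain, read 8.33 with GHMT alone, 10.36 with the EP4 antagonist, 14.47 with the TGFb inhibitor and 10.89 with the Wnt inhibitor (3.58 ± 0.28, 12.0-fold). Tnnt3 (fast skeletal troponin T) read 12.59, 11.47, 13.62 and 11.41 (2.21 ± 0.70) and Myh8 (perinatal myosin) 4.54, 6.67, 7.35 and 5.99 (1.36 ± 0.58). Myl1 ranged from 8.82 to 11.62 in set 1, below the TGFb inhibitor value, and Tnnt3 from 12.37 to 13.52. The defining muscle regulators Myod1, Myog and Pax7 were at background in both cultures. Of 21 smooth muscle genes, 3 were lower with the TGFb inhibitor and 0 higher: Fhl2 (-1.53 ± 0.28), Ramp1 (-1.27 ± 0.59) and Smtn (-1.23 ± 0.29). The shares of all clusters were 3.74% and 3.04%. Smtn (9.23, 9.26, 7.67 and 8.90) was low with the TGFb inhibitor. Fhl2 (12.10, 12.59, 11.86 and 13.39) was high with the Wnt inhibitor. Ramp1 (6.38, 9.42, 7.59 and 8.86) was lowest with GHMT alone and highest with the EP4 antagonist.

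Secreted signals also differed. Of 18 cytokine, chemokine and adhesion genes above background (39 matched), 5 were higher and 1 lower with the TGFb inhibitor (median 0.64). The shares of all clusters were 3.04% and 3.74%. Over all 39 matched, 6 were higher and 4 lower and the median was 0.16. Ccl2, which attracts monocytes, read 10.46 with GHMT alone, 11.33 with the EP4 antagonist, 13.29 with the TGFb inhibitor and 10.84 with the Wnt inhibitor (2.45 ± 0.55, 5.46-fold). The adhesion molecule Vcam1 (13.30, 12.34, 14.56 and 13.27) and the chemokine Ccl7 (1.2 ± 0.32) had the same shape. Cxcl12 was higher with the Wnt inhibitor (11.07, 11.07, 11.82 and 13.47; -1.65 ± 0.28), at a level within its set-1 range of 13.03 to 14.10. Of 36 growth factors and receptors, 6 were higher and 6 lower, against the same shares of 3.04% and 3.74%. Vegfd, a lymphatic growth factor, read 10.38, 9.85, 13.25 and 10.63 (2.62 ± 0.28, 6.15-fold), and Kitl (stem cell factor) 11.34, 11.13, 13.75 and 11.97 (1.78 ± 0.28). Flt1, a VEGF receptor, was lowest of the set with the TGFb inhibitor (11.01, 12.57, 9.25 and 11.26) and read 8.01 to 10.16 in set 1.

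In the prostanoid pathway, which the study as a whole addressed, 2 of 13 genes above background were higher and 2 lower with the TGFb inhibitor. The shares of all clusters were 3.04% and 3.74%. Ptger3, the PGE2 receptor EP3, read 6.54 with GHMT, 5.90 with the EP4 antagonist, 8.92 with the TGFb inhibitor and 5.78, at background, with the Wnt inhibitor (at least 7.94-fold), and Slco2a1, the prostaglandin uptake carrier, 6.78, 6.11, 9.07 and 6.87 (2.20 ± 0.36). In both, the TGFb inhibitor array was high. Hpgd, which degrades prostaglandins, was high with the Wnt inhibitor (8.35, 9.60, 7.98 and 10.65; -2.67 ± 0.47). Ptgs2 (cyclooxygenase-2) read 12.86, 13.72, 10.32 and 11.61 (-1.29 ± 0.36), lower with both inhibitors than in the other arrays of set 2, while set 1, without either inhibitor, read 9.47 to 10.03. Ptger4, which encodes EP4, differed by -0.44 ± 0.28.

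A last group comprises genes for which the Wnt inhibitor array stood apart while the TGFb inhibitor array lay within 0.5 of GHMT. These genes were chosen after their values were seen. Ednrb, an endothelin receptor, read 9.20 with GHMT alone, 8.66 with the EP4 antagonist, 9.04 with the TGFb inhibitor and 11.75 with the Wnt inhibitor (-2.71 ± 0.28, 6.54-fold). Angpt1, a ligand of the vascular receptor Tie2, read 9.90, 9.95, 10.39 and 12.51 (-2.12 ± 0.34), and Lama2, a laminin chain of muscle basement membrane, 11.02, 11.85, 10.71 and 12.79 (-2.08 ± 0.31). All 3 were highest with the Wnt inhibitor. Lowest with it, beside Axin2, Apcdd1, Peg10 and Csrp3, were Lurap1l (10.49, 10.54, 10.77 and 8.62; 2.15 ± 0.29) and Cth, an enzyme of cysteine synthesis (7.27, 6.84, 7.07 and 5.09, at least 2.20-fold).

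**Figure D5:**
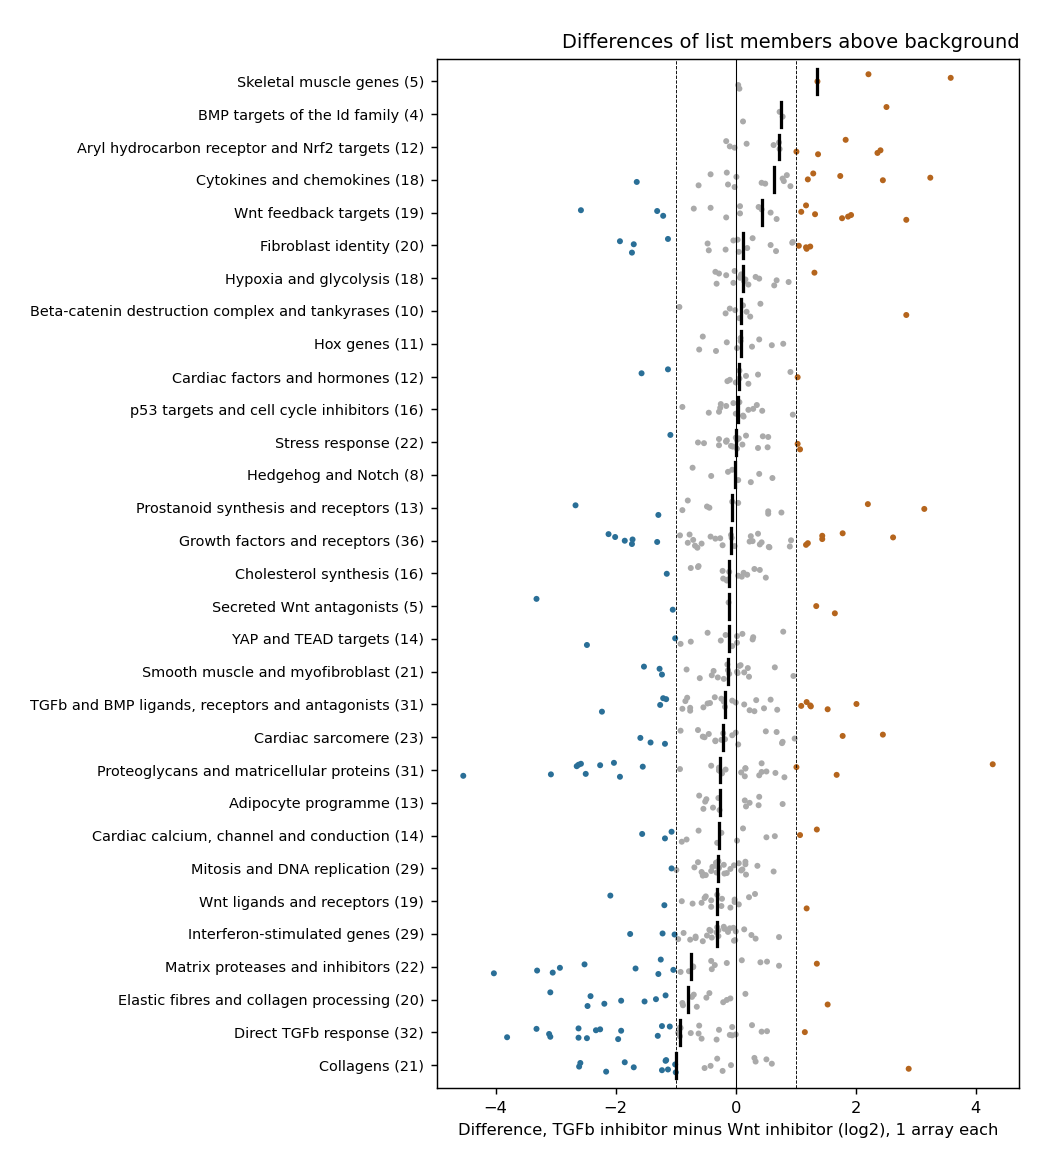
Difference in log2 expression value, TGFb inhibitor minus Wnt inhibitor, 1 array each (x axis), for the members of 31 gene lists whose higher array lies above background (number in brackets); each point is a gene, the bar is the list's median and the dashed lines mark 2-fold. The lowest medians belong to collagens (-1.0), direct TGFb response genes (-0.93), fibre assembly (-0.80) and matrix proteases (-0.74), and the highest to skeletal muscle genes (1.36, from 5 genes). Over all matched members, background included, the direct TGFb response is at -0.92, collagens at -0.22 and skeletal muscle genes at 0.05.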

How the data were processed

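Total RNA of 8 cultures was hybridised to Clariom S Mouse arrays, 1 biotin-labelled sample per array. The deposited log2 values were made by the authors in Affymetrix Expression Console 1.4 with its SST-RMA method, a probe-level signal transformation followed by robust multichip analysis, per the labels' design text and the submitters' processing notes. The sources used here give no genome build or filter, and do not say whether both TTF sets were normalized in 1 run. Robust multichip analysis is known to compress differences between low signals, and how far the signal transformation changes this was not tested.

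Of 28846 rows, 6640 control probe sets were left out and 22206 transcript clusters kept. A platform annotation gave 1 gene symbol to 19572 clusters (19505 distinct symbols), several to 0, and left 2634 unnamed here; 55 symbols were on more than 1 cluster, and there the cluster brightest on average was used. The background level of an array is the 95th percentile over 23 background probe sets. Where the lower array lay at background, a fold is given against that level as "at least". Compared with a 2-fold threshold (log2 difference of 1), the difference of 1 array from 1 array has no test.

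Standard errors and p-values (two-sided, Benjamini-Hochberg adjusted over all clusters) came from limma 3.58.1 (lmFit, eBayes) in R 4.3.3 over 8 arrays and with TTF set as a fixed term (block). The titles attach the set number to the fibroblasts but do not say what it stands for. The set differences of GHMT and of the EP4 antagonist correlated across clusters (r = 0.724). Arrays correlated at 0.986 to 0.995 within and 0.974 to 0.984 between sets. The fit was also run on simulated data with known differences, drawn with the fit's own variances and an additive shift between sets. Such data meet the assumptions of the fit by construction, and no conclusion is drawn from them. They cannot test whether the single inhibitor arrays vary like GHMT and the EP4 antagonist.

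The comparison, its members and the 31 gene lists (877 entries, 821 matched) were chosen with earlier results of these data known. Genes were named by rule: the 15 largest differences in each direction among clusters with a symbol, not a predicted gene, whose higher array lay above background and the median level; up to 4 members of each list; and a fixed set of pathway, factor, cardiac and interferon genes. Further list members were named after their values were seen. Promoters are RefSeq's (GRCm38.p6), 250 bases before each start; the 50 bases after it were not searched. Alternatives were quantile normalization, centring, a background filter, named clusters only, other priors and no block.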

Additional observations from a re-analysis of the deposited data

How the results depend on the processing

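The count of clusters at least 2-fold apart stayed within 1.5 times of 936 under each alternative: 806 after quantile normalization, 927 after centring each array on its median, 680 with the higher array above background and 837 with a gene symbol. Of 158 named gene differences, 0 changed sign after quantile normalization or centring, 4 and 1 crossed 2-fold, and the largest shift was 0.22. The list medians moved with the background filter alone: calcium handling from 0.02 to -0.28, skeletal muscle from 0.05 to 1.36, collagens from -0.22 to -1.0, cytokines from 0.16 to 0.64 and adipocyte genes from 0.11 to -0.27, because members at background drop out.

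The count past limma's adjusted p of 0.05 depended on the setting. It was 0 with the TTF set as a block and also 0 without that replicate block (333 clusters with an unadjusted p under 0.05, smallest adjusted p 0.62). It was 146 with a trend and robust prior (52 higher, 94 lower with the TGFb inhibitor), 229 after quantile normalization (99 and 130), and 65 of 10933 clusters above background in at least 1 array (26 and 39). The cause was not tested. Leaving out a GHMT or EP4 antagonist array leaves no residual degree of freedom, so no such fit was made, and an inhibitor array left out removes the comparison.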

Other observations

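Targets of the aryl hydrocarbon receptor, a sensor of aromatic compounds, and of Nrf2 were mostly higher with the TGFb inhibitor (9 of 12 above background positive): 5 of 12 above background were at least 2-fold higher and 0 lower, against 3.04% and 3.74% of all clusters above background, with a median difference of 0.72. Ahrr, the receptor's feedback repressor, read 7.40 with GHMT alone, 7.93 with the EP4 antagonist, 9.39 with the TGFb inhibitor and 7.03 with the Wnt inhibitor (2.36 ± 0.28 SE, 5.13-fold). Aldh3a1, an aldehyde dehydrogenase, read 8.78, 7.02, 9.46 and 7.05 (2.41 ± 0.51), and Cyp1b1 10.22, 9.86, 9.23 and 7.86 (1.37 ± 0.40), so for these the Wnt inhibitor array lay below GHMT. Cyp1a1 was at background in all 4 arrays (2.57 to 3.56). The receptor gene Ahr, which is no member of the list and was named after its values were seen, read 7.44, 6.42, 9.01 and 6.19 (2.82 ± 0.46, 7.06-fold).

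Genes of mitosis and DNA replication were close: of 29 above background, 1 was at least 2-fold lower with the TGFb inhibitor (the spindle motor Kif11, -1.07 ± 0.30), 0 were higher, and the median was -0.29, with 21 negative. The shares of all clusters above background were 3.74% lower and 3.04% higher, so these counts are near the shares. Mki67 read 13.09 with GHMT alone, 12.55 with the EP4 antagonist, 11.76 with the TGFb inhibitor and 12.31 with the Wnt inhibitor, lower in both inhibitor arrays. Past 2-fold were 0 of 16 p53 targets and cell cycle inhibitors, 0 of 8 Hedgehog and Notch genes, 0 of 13 adipocyte genes and 0 of 11 Hox genes above background. Of all clusters above background 6.79% were past 2-fold, so lists this short cannot be told from that share by a count of 0. Of 14 YAP and TEAD targets 2 were lower, Ccn2 and F3 (-1.01 ± 0.49), while Ccn1 differed by -0.06. Adm was the 1 of 18 hypoxia and glycolysis genes past 2-fold (1.31 ± 0.58) and Dhcr7 the 1 of 16 cholesterol synthesis genes (-1.15 ± 0.29). These single genes stand beside shares of 3.04% higher and 3.74% lower. Of 22 stress genes, Atf3 (1.07 ± 0.32) and Phgdh (1.03 ± 0.41) were higher and Nupr1 (-1.09 ± 0.30) lower with the TGFb inhibitor.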
